A study of Homo sapiens with 18 samples.

Results

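Untreated cells of 2 colon cancer lines, RKO and COLO 201, were set side by side across all genes that both of the authors' expression tables list. The comparison used 5 of the 18 samples of the series: RKO vehicle columns 2 and 3, and COLO 201 vehicle columns 1 to 3. RKO vehicle column 1 was kept apart because it holds transcripts of other cells. Its value is given beside some genes only, and where it is not given it may differ from columns 2 and 3. The cells of every column carried a tetracycline-inducible short hairpin RNA against MUC1 with puromycin resistance (tet-MUC1shRNA), so neither line was unmodified. Vehicle was 0.1% DMSO, and doxycycline columns, which give a second comparison of the lines, came from cells treated at 500 ng/ml. Vehicle columns of H1975, a lung adenocarcinoma line with the same hairpin, are quoted beside single genes. COLO 201 headings mark the vehicle with a minus sign, whereas RKO headings carry no sign and were read as vehicle from the protocol. RKO was grown in EMEM, and COLO 201 and H1975 in RPMI1640, all with 10% serum. The labels describe triplicate cultures and do not say whether a line was 1 clone, so the spread between columns may be technical.

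RKO is known as a poorly differentiated colon carcinoma line with mismatch repair deficiency, dense promoter methylation and intact APC. COLO 201 was established from malignant ascites of a colon adenocarcinoma and grows partly in suspension. The lining of the colon renews itself from crypt stem cells held by WNT signals, and its cells mature into absorptive colonocytes, mucus-filled goblet cells and hormone-producing cells. Epithelial cells hold each other through E-cadherin and tight junctions and carry simple keratins. Cells that lose this state express factors such as ZEB1, a repressor of E-cadherin.

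The tables were normalised separately, so line, table and culture medium cannot be told apart. No test was made between them, and large differences are stressed. Values are rescaled TPM, that is transcripts per sum of all transcripts, set to a common level over shared genes. Differences are RKO minus COLO 201 on the log2(rescaled TPM + 1) scale with the standard error over columns, a scale that understates the change of low genes. A gene was called when this difference reached 3 in size, which is 8-fold on that scale, and the columns of the lines did not overlap. Of 18850 shared genes, 12122 had a mean of at least 1 in either line and were kept. Of these, 860 (7.09%) were called higher in COLO 201 and 346 (2.85%) higher in RKO. The counts of calls in each list below are to be read against these shares. The median difference of all 12122 genes was -0.12, and 7037 of them (58.1%) lay within 1 of 0. Other scalings put that median between -0.29 and 0.03, so a difference of that size has no firm direction. A gene at 0 in one line had to reach 7 in the other to be called. The median of a list covers its kept members, and a gene can be kept through its level in either line alone.

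**Figure D1:**
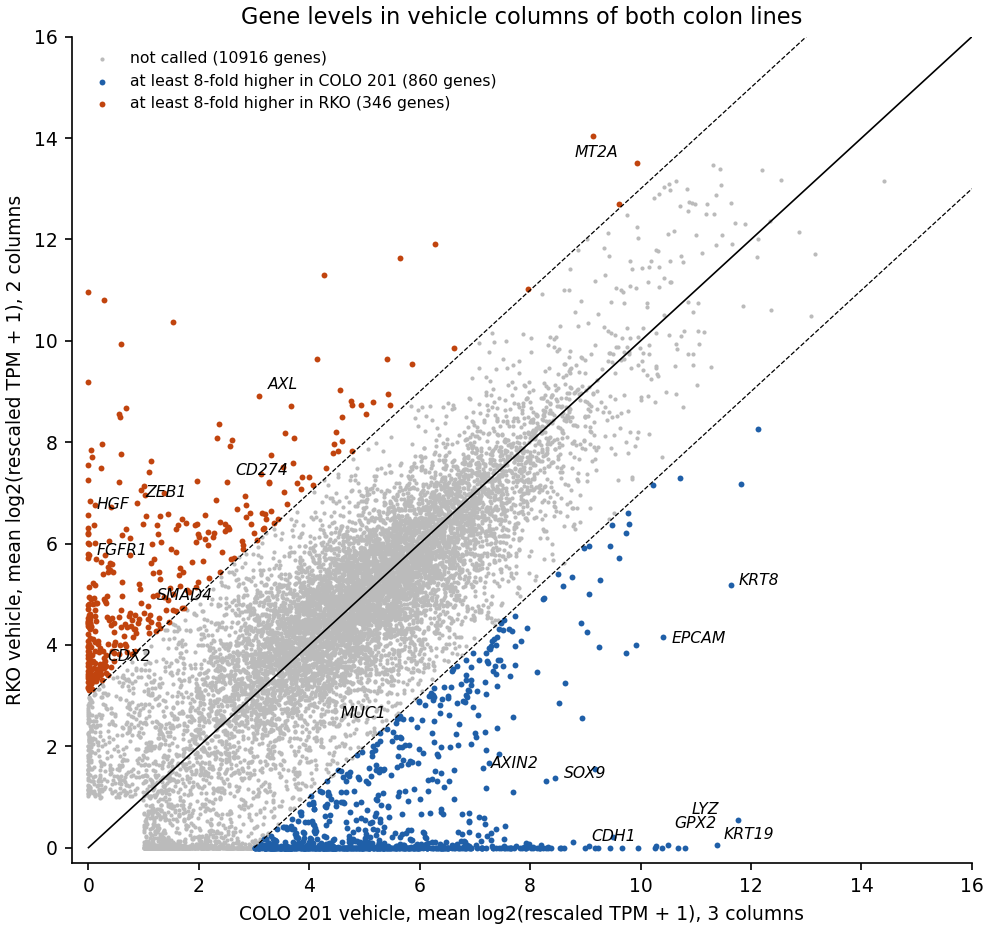
Mean log2(rescaled TPM + 1) of every kept gene in the 3 COLO 201 vehicle columns (x axis) and in the 2 RKO vehicle columns (y axis). The solid line marks equal levels and the dashed lines a difference of 3; 860 genes lie beyond the line on the COLO 201 side, many of them on the floor of the RKO axis, and 346 on the RKO side.

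Genes of processes that every cell runs gave the scale against which these differences can be read. Among 89 proteasome, RNA polymerase, spliceosome, citric acid cycle and glycolysis genes the median difference was -0.07, and 73 lay within 1 of 0. U2AF1, a splicing factor, was called, at 0 in both RKO columns and 324, 301 and 310.2 in COLO 201 and 152, 142 and 141 in H1975. The other 88 ran from -1.99 to 2.10, so none of them reached the threshold. Because a gene that every cell needs was listed at 0 in RKO, a 0 is reported here only as listed, with no fold. In all, 375 of the 860 genes called higher in COLO 201 were listed at 0 in both RKO columns. Of the 346 genes called higher in RKO, 35 were listed at 0 in all 3 COLO 201 columns.

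MUC1, the transmembrane mucin that the hairpin targets (chr1:155185824-155192915, GRCh38), stood at 4.47 and 4.34 in RKO and 19.7, 21.5 and 20.3 in COLO 201, a difference of -1.99 ± 0.04. The columns of the lines did not overlap, and the gene was not called. RKO vehicle column 1 stood apart at 61.7. In the doxycycline columns MUC1 was at 0.638, 0.439 and 1.02 in RKO and 2.72, 2.37 and 2.14 in COLO 201, below every vehicle column of its own line.

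Epithelial junction genes were the list with the largest number of calls. Of 50 listed genes that make or polarise cell contacts, 48 were kept. Of these, 29 were called higher in COLO 201 and 0 higher in RKO, where 7.09% and 2.85% of all kept genes were. Their median difference was -3.85. CDH1, which encodes E-cadherin (chr16:68737292-68835537), was listed at 0 in both RKO columns and 499.9, 511 and 508 in COLO 201. EPCAM, an adhesion molecule of carcinomas, was detected in both lines, at 16.9 and 16.7 in RKO and 1406, 1326 and 1341 in COLO 201, a difference of -6.25 ± 0.03. The tight junction claudin CLDN7 stood at 0.0662 and 0.0543 in RKO and 242, 239 and 249 in COLO 201, a difference of -7.85 ± 0.02. For these 3 genes every COLO 201 column lay far above both RKO columns. LAD1, a basement membrane anchor protein, was listed at 0 in both RKO columns and 373, 369.8 and 387 in COLO 201. RAB25, a small GTPase of apical recycling, was at 0 in both RKO columns and 190.0, 196 and 208 in COLO 201. ST14, the surface protease matriptase, stood at 0.0394 and 0 in RKO and 210.2, 218 and 213 in COLO 201. The 19 members that were not called included the desmoglein DSG2, at 69.7 and 68.1 in RKO and 136, 137 and 134 in COLO 201, a difference of -0.97 ± 0.02, so junction transcripts were not missing from RKO as a class. In bulk RNA, fewer cells of a kind and less RNA per cell cannot be told apart.

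The promoters of those of the junction genes above that the RefSeq table holds are printed here because E-boxes near the start are known as sites of repressors such as ZEB1. Each runs from 250 bases before to 50 after the gene's start (GRCh38.p14, strand of the gene). Capitals mark CACCTG or its reverse complement CAGGTG, the E-box that ZEB1 binds, which 20.6% of the 27305 promoters in the table hold. RAB25 lies at chr1:156060910-156061209 on the plus strand, LAD1 at chr1:201399275-201399574 on the minus strand and CLDN7 at chr17:7263164-7263463 on the minus strand.
RAB25: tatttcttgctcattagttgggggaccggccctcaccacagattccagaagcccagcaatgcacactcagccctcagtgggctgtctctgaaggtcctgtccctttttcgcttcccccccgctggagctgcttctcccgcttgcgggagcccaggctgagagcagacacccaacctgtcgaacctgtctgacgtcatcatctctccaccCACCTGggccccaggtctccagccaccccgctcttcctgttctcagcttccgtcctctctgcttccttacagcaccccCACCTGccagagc
LAD1: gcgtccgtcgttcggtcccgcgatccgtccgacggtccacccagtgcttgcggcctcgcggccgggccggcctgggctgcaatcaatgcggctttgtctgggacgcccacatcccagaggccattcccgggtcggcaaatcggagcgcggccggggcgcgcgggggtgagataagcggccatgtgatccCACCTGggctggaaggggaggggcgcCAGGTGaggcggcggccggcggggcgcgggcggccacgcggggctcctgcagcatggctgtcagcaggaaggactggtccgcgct
CLDN7: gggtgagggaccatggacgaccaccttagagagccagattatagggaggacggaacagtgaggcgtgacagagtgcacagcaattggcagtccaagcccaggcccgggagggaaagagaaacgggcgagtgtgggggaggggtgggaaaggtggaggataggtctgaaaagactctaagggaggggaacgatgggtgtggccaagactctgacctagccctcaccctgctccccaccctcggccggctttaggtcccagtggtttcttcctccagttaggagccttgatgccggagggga
RAB25 and LAD1 each held 2 matches and CLDN7 held 0. A match is a description of the letters and not a site of binding. Of the 29 called junction genes, 16 had a promoter in the table, too few for a count over the list.

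Keratins, the filaments of epithelial cells, showed the same order. Of 16 kept keratins, 7 were called higher in COLO 201 and 0 higher in RKO, and all 16 had a lower mean in RKO. The median difference was -2.98. KRT19, a simple keratin, had the largest difference of all genes called higher in COLO 201, at 0 and 0.0787 in RKO and 2644, 2641 and 2776 in COLO 201. The partners KRT8 and KRT18 were detected in both lines. KRT8 stood at 33.0 and 37.5 in RKO and 3202, 3075 and 3224 in COLO 201, a difference of -6.45 ± 0.09. KRT18 stood at 139 and 149 in RKO and 3636, 3565 and 3668 in COLO 201, a difference of -4.64 ± 0.05. RKO thus held this simple keratin pair at a lower level, with KRT19 near 0. KRT23, a keratin of gut tumours, was listed at 0 in both RKO columns and 56.2, 56.9 and 59.8 in COLO 201. KRT80 was at 2.15 and 2.20 in RKO and 149, 149 and 155 in COLO 201, while RKO vehicle column 1 held 50.9. KRT6B, a keratin of stratified epithelia with near-identical relatives, was at 0 in both RKO columns and 98.2, 92.7 and 93.6 in COLO 201.

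Most genes on a list of regulators found in epithelial cells, not all of which hold the epithelial state, had their high level in COLO 201. Of 13 kept regulators, 10 were called higher in COLO 201 and 0 higher in RKO, and the median difference was -5.53. ESRP1, a splicing regulator, was listed at 0 in both RKO columns and 286, 290.2 and 279.5 in COLO 201. GRHL2, an activator of junction genes, was at 0 in both RKO columns and 103, 106 and 106 in COLO 201. The ETS factor EHF was at 0 in both RKO columns and 239, 239 and 239 in COLO 201. Its relative ELF3 stood at 0 and 0.0329 in RKO and 81.2, 83.8 and 88.5 in COLO 201. For these 4 genes RKO vehicle columns 2 and 3 did not pass 0.0329, while column 1 held 0.419 of EHF and 0.548 of ELF3. FOXQ1, a forkhead factor of colon tumours, was at 0 in both RKO columns and 123, 126 and 116 in COLO 201. ESRP2, the relative of ESRP1, was not called, at 25.3 and 26.3 in RKO and 48.2, 47.3 and 49.3 in COLO 201, a difference of -0.88 ± 0.03.

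Mesenchymal genes were divided between the lines. Of 30 kept members of a list of 57, 10 were called higher in RKO and 4 higher in COLO 201, and the median difference was 0.41. Over all 57, kept or not, the median was 0. ZEB1 (chr10:31318417-31529804) stood at 113 and 107 in RKO and 0.859, 0.807 and 0.860 in COLO 201, a difference of 5.91 ± 0.05. The receptor kinase AXL was at 480.1 and 487 in RKO and 7.48, 7.55 and 7.502 in COLO 201, a difference of 5.83 ± 0.01. The caveola protein CAVIN1 was at 142 and 136 in RKO and 0.943, 1.04 and 1.05 in COLO 201, a difference of 6.12 ± 0.04. These 3 were abundant in RKO and low in every COLO 201 column. CCN1, a matrix protein induced by YAP, was at 254 and 244 in RKO and 0.126, 0.277 and 0.162 in COLO 201, and the genes around it had a median difference of 1.59. CALD1, an actin-binding protein, was at 22.3 and 21.7 in RKO and 0, 0.00769 and 0 in COLO 201. The order was the opposite for S100A4, a calcium-binding protein often used as a mesenchymal marker, at 0.665 and 0.273 in RKO and 3414, 3393 and 3596 in COLO 201. TGFBI, a matrix protein, was also higher in COLO 201, at 0 in both RKO columns and 194, 194 and 196 in COLO 201. FN1, fibronectin, was at 0 and 0.0114 in RKO and 37.5, 35.9 and 34.2 in COLO 201. VIM, the mesenchymal filament vimentin, was low in both lines, at 8.89 and 9.51 in RKO and 0.0585, 0.0428 and 0 in COLO 201. In RKO vehicle column 1 VIM was 1466 and FN1 292, and with that column included FN1 had a difference of -2.46 and was not called. With a pseudocount of 5, CALD1 and VIM were not called.

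**Figure D2:**
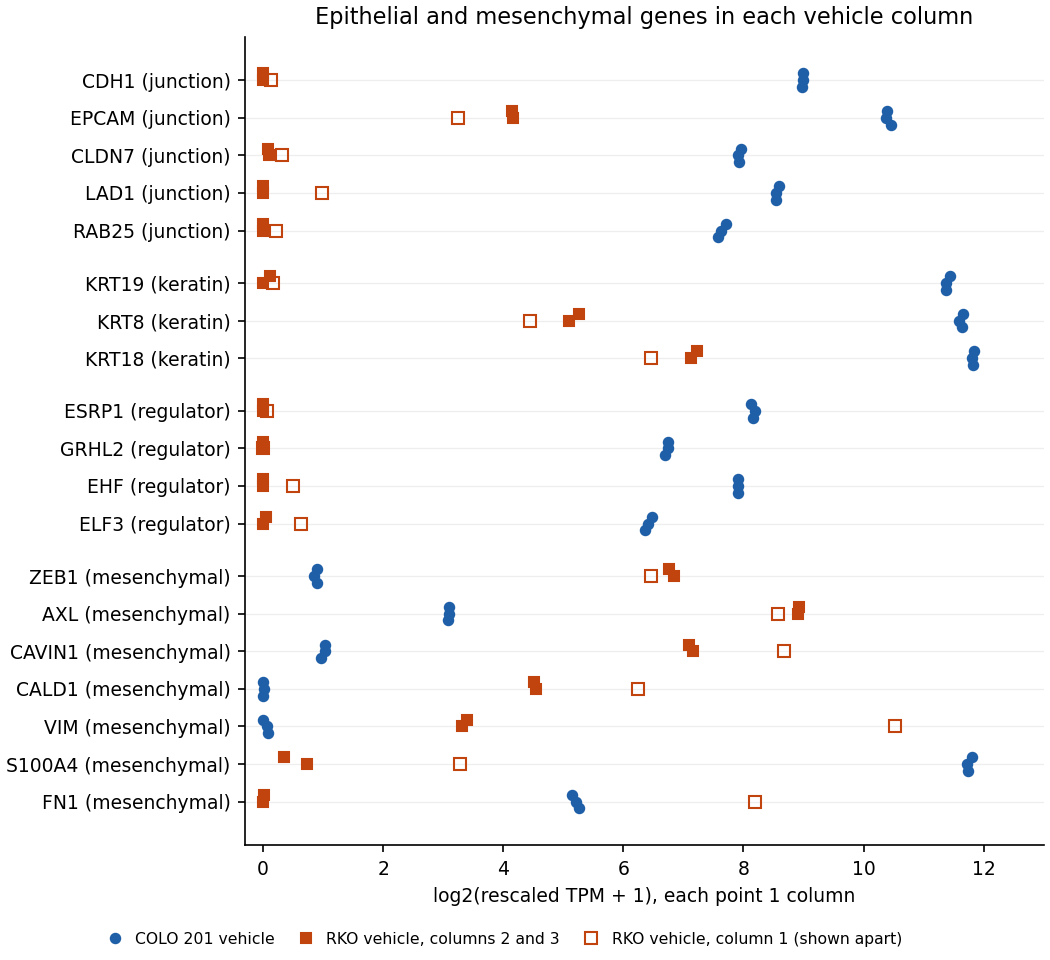
Log2(rescaled TPM + 1) of junction, keratin, epithelial regulator and mesenchymal genes in each vehicle column, with COLO 201 as circles, RKO columns 2 and 3 as filled squares and RKO column 1 as open squares. For every junction, keratin and regulator gene shown the filled squares lie to the left of the circles, for ZEB1 to VIM they lie to the right, and for S100A4 and FN1 again to the left.

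Against the markers of colon epithelium, the labelled tissue of both lines, 11 of 16 markers had a mean of at least 1 in COLO 201 and 5 of 16 in RKO. Those in RKO included EPCAM, KRT8, KRT18 and CDX2. CDX1 and MUC2 were near 0 in both lines, with at most 0.0289 in any of the 5 columns. CDH17, the liver-intestine cadherin, stayed under 1 in COLO 201, at 0.627, 0.702 and 0.494. CEACAM5, the carcinoembryonic antigen, did so as well, at 0.722, 0.810 and 0.744. The label was thus met by part of the markers in COLO 201 and by fewer in RKO. No member of the fibroblast and endothelial or the lung list was called. The fibroblast and endothelial list summed to at most 0.465 in RKO columns 2 and 3 and 2.55 in COLO 201.

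The intestinal transcription factors did not all follow the epithelial genes. Of 17 kept, 6 were called higher in COLO 201 and 2 higher in RKO, with a median difference of -1.72. Over all 25 members, kept or not, the median was -1.05. HNF4A, the main regulator of enterocyte genes, was at 0 in both RKO columns and 88.5, 88.2 and 93.7 in COLO 201. FOXA2, an endoderm pioneer factor, was at 0 in both RKO columns and 104, 105 and 101 in COLO 201. SOX9, a crypt factor, was at 1.90 and 1.29 in RKO and 348, 356 and 346 in COLO 201, a difference of -7.09 ± 0.17. These were high in all 3 COLO 201 columns and low or at 0 in RKO. KLF5, a factor of proliferating crypt cells, was at 2.72 and 2.94 in RKO and 142, 152 and 145 in COLO 201, a difference of -5.27 ± 0.05. CDX2, the hindgut master factor (chr13:27960918-27969315), had the opposite order, at 10.7 and 10.8 in RKO and 0.184, 0.171 and 0.0647 in COLO 201, a difference of 3.37 ± 0.05. GATA4, a factor of the proximal gut, was also higher in RKO, at 11.5 and 10.3 in RKO and 0, 0.0124 and 0 in COLO 201. Both CDX2 and GATA4 lost their calls with a pseudocount of 5.

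Only part of the genes of mature colon cells was detected, mainly in COLO 201. Of 48 genes of absorptive cells, 21 were kept, 12 were called higher in COLO 201 and 0 higher in RKO, with a median difference of -3.55. Over all 48, kept or not, the median was -0.26. Of the kept genes, 4 had the higher level in RKO. The 27 others had a mean under 1 in both lines, among them CA1, CA4, SLC26A3, AQP8, MS4A12 and CEACAM7. PHGR1, a small protein of the gut surface, was at 0 in both RKO columns and 1568, 1558 and 1781 in COLO 201. VIL1, the microvillus protein villin, was at 0 in both RKO columns and 172, 171 and 173 in COLO 201. The lectin LGALS4 was at 0 in both RKO columns and 83.3, 76.4 and 89.2 in COLO 201. All 3 were thus listed at 0 in RKO columns 2 and 3. TSPAN8, a tetraspanin of gut tumours, was at 0 in both RKO columns and 191, 179 and 188 in COLO 201. USH1C, which links the tips of microvilli, was at 0.0391 and 0.0321 in RKO and 113, 115 and 118 in COLO 201.

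Of 40 goblet and secretory genes, 21 were kept, 13 were called higher in COLO 201 and 0 higher in RKO, and all 21 had a lower mean in RKO. Their median difference was -4.95. LYZ, lysozyme, was at 0 in both RKO columns and 1809, 1752 and 1820.0 in COLO 201. LYZ also stands on the leukocyte list, whose defining gene PTPRC was at 0 in all 3 COLO 201 columns. AGR2, a mucin-folding enzyme, was at 0 in both RKO columns and 196, 182 and 193 in COLO 201. MUC13, a transmembrane mucin, was at 0 in both RKO columns and 146, 149 and 143 in COLO 201. The trefoil peptide TFF3 was at 0 in both RKO columns and 61.9, 60.8 and 75.7 in COLO 201. Secretory genes were therefore expressed in COLO 201 without MUC2, the main secreted mucin of goblet cells. Of 21 enteroendocrine genes 3 were kept and 0 were called.

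Of 33 kept WNT targets and crypt stem cell genes, 18 were called higher in COLO 201 and 1 higher in RKO, with a median difference of -4.45. Over all 42 shared members, kept or not, the median was -1.35. AXIN2, the feedback inhibitor that is the usual readout of beta-catenin activity, stood at 1.85 and 2.14 in RKO and 139, 141 and 142 in COLO 201, a difference of -5.57 ± 0.07. RNF43, an enzyme that removes WNT receptors, was at 0 in both RKO columns and 138, 139.8 and 139.8 in COLO 201. ASCL2, a stem cell transcription factor, was at 0 in both RKO columns and 161, 154 and 164 in COLO 201, and the genes around it had a median difference of -1.90. AXIN2, RNF43 and ASCL2 were thus high in every COLO 201 column. This did not hold for the whole list. NOTUM, APCDD1, DKK1, DKK4, WIF1 and OLFM4 had a mean under 1 in both lines. ZNRF3, LEF1 and TNFRSF19 were among the 14 kept genes that were not called. SMOC2, a matrix protein of crypt base cells, was at 0 in both RKO columns and 227, 234 and 232 in COLO 201. PROM1, the surface marker CD133, was at 0 in both RKO columns and 83.0, 83.3 and 83.2 in COLO 201. The receptor EPHB2, which positions cells along the crypt, stood at 8.56 and 8.44 in RKO and 394, 393 and 399.6 in COLO 201, a difference of -5.38 ± 0.01. RGMB, a BMP co-receptor, was the call in the other direction, at 180.2 and 180.2 in RKO and 10.1, 10.6 and 10.6 in COLO 201, a difference of 3.99 ± 0.02. CTNNB1, beta-catenin itself, stood at 265 and 268 in RKO and 275, 269 and 270.5 in COLO 201, a difference of -0.03 ± 0.01, within the shift between scalings. MYC, also known as a WNT target but driven by other signals too, had the higher level in RKO, at 251 and 246 in RKO and 94.0, 93.2 and 95.8 in COLO 201, a difference of 1.39 ± 0.02. CCND1, a cyclin driven by WNT and growth factors, stood at 192 and 193 in RKO and 264, 266 and 258 in COLO 201, a difference of -0.45 ± 0.01, and neither was called. AXIN2 and RNF43 overlap other annotated genes on the same strand, so their counts may be shared with a neighbour.

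SP5, a transcription factor gene known as a direct WNT target, is shown with its promoter because it was the called WNT gene in the table with the TCF word there. It was chosen after its values were seen. SP5 stood at 1.54 and 1.60 in RKO and 74.3, 71.1 and 76.4 in COLO 201, a difference of -4.87 ± 0.04. Its promoter lies at chr2:170715087-170715386 on the plus strand (GRCh38.p14, RefSeq). Capitals mark CTTTGAT or its reverse complement ATCAAAG, the word of TCF factors, which 2.64% of the promoters in the table hold.
SP5: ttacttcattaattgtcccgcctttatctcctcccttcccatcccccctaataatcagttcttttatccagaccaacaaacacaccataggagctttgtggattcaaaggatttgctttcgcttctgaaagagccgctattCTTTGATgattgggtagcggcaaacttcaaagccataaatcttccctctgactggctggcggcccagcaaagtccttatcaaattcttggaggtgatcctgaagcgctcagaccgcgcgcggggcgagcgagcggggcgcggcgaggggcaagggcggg
The word occurs 1 time in this window. Of the 18 called WNT genes, 11 had a promoter in the table, too few for a count over the list.

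Genes that are often methylated in colon cancer went both ways. Of 43 shared genes on that list 16 were kept, 6 were called higher in COLO 201 and 2 higher in RKO, while 13 were listed at 0 in both lines. CDKN2A, the p16 tumour suppressor gene, was at 0.260 and 0.0533 in RKO and 68.6, 63.9 and 69.8 in COLO 201, a difference of -5.89 ± 0.13. IGFBP3, a binding protein of insulin-like growth factors, was at 0 in both RKO columns and 73.7, 71.8 and 72.2 in COLO 201. IRF8, an interferon regulatory factor, was at 0 in both RKO columns and 31.7, 32.04 and 32.6 in COLO 201. These were at or near 0 in RKO columns 2 and 3. VIM and GATA4 were the 2 called higher in RKO. RKO vehicle column 1 held 196 of CDKN2A, 561 of IGFBP3 and 344 of THBS1, and with it the calls of these 3 and of CDH13 were lost. With a pseudocount of 5, IRF8, THBS1, CDH13, VIM and GATA4 lost theirs. DNA methylation was not measured.

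Of 33 kept genes of growth arrest and cell stress, 2 were called higher in COLO 201 and 1 higher in RKO, shares near the 7.09% and 2.85% of all kept genes, with a median difference of 0.39. The 3 called genes are given as single genes. CDKN1A, the cell cycle inhibitor p21, stood at 104 and 111 in RKO and 6.36, 5.42 and 6.83 in COLO 201, a difference of 3.92 ± 0.10. PERP, a desmosome protein gene, was at 49.7 and 52.7 in RKO and 792, 807 and 754 in COLO 201, a difference of -3.91 ± 0.05. PLK2, a stress-induced kinase, stood at 0.278 and 0.152 in RKO and 49.7, 49.9 and 50.9 in COLO 201, a difference of -5.40 ± 0.08, and its call was lost with RKO column 1. CDKN1A was thus high in RKO columns 2 and 3, and the other two in every COLO 201 column.

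Growth factor receptors and their ligands formed different sets in each line. Of 36 kept, 13 were called higher in COLO 201 and 3 higher in RKO, with a median difference of -1.31. Over all 50 members, kept or not, the median was -0.07. EREG, a ligand of the EGF receptor, was at 0 in both RKO columns and 199.7, 214 and 191 in COLO 201. AREG, another of its ligands, was at 1.47 and 1.11 in RKO and 81.5, 85.9 and 91.8 in COLO 201, a difference of -5.26 ± 0.12. FGF19, a gut hormone of the FGF family, was at 0 in both RKO columns and 374, 374 and 371 in COLO 201. For these 3 ligands every COLO 201 column was above both RKO columns. The kinase-dead ephrin receptor EPHB6 stood at 0.0617 and 0.0886 in RKO and 426, 428 and 451 in COLO 201, a difference of -8.66 ± 0.03. On the RKO side, HGF, the ligand of MET, was at 94.1 and 92.4 in RKO and 0 in all 3 COLO 201 columns. FGFR1, an FGF receptor, was at 53.8 and 54.4 in RKO and 0, 0.00676 and 0 in COLO 201, a difference of 5.78 ± 0.01. The third call on the RKO side was AXL, described above. EGFR was not called, at 12.5 and 12.1 in RKO and 31.5, 31.7 and 31.7 in COLO 201, a difference of -1.30 ± 0.02, and column 1 of RKO held 65.8.

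Both lines are known to carry an activating BRAF mutation, which feeds the RAS-MAPK cascade. Readouts of that cascade showed no common direction: of 25 kept genes 4 were called higher in COLO 201 and 1 higher in RKO, with a median difference of 0.22. The ERK phosphatases DUSP4 and DUSP5 went opposite ways. DUSP4 stood at 0.445 and 0.589 in RKO and 133, 134 and 133 in COLO 201, a difference of -6.47 ± 0.07. DUSP5 stood at 149.9 and 145 in RKO and 7.997, 9.15 and 8.73 in COLO 201, a difference of 3.95 ± 0.06. DUSP6, the phosphatase most used as an ERK readout, was at 95.6 and 95.5 in RKO and 85.5, 84.2 and 80.6 in COLO 201, a difference of 0.19 ± 0.03, also within the shift between scalings. SPRY1, a feedback inhibitor, was called by a small margin, at 4.00 and 5.11 in RKO and 45.7, 48.3 and 46.1 in COLO 201, a difference of -3.11 ± 0.15. Its call was lost with a pseudocount of 5, with upper quartile scaling, with RKO column 1 and without RKO column 2.

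In the TGF-beta and BMP pathway 5 of 24 kept genes were called higher in COLO 201 and 4 higher in RKO. Among ligands, BMP4 was at 1.39 and 1.56 in RKO and 303, 318 and 315 in COLO 201, a difference of -6.98 ± 0.05. BMP7 was at 0 in both RKO columns and 85.7, 84.3 and 89.3 in COLO 201. TGFB1 had the other order, at 126 and 131 in RKO and 11.02, 9.52 and 11.5 in COLO 201, a difference of 3.48 ± 0.08. The BMP ligands were thus high in COLO 201 and the TGF-beta ligand in RKO. Of the receptors, TGFBR2 stood just under the threshold, at 14.2 and 11.9 in RKO and 103, 102 and 99.5 in COLO 201, a difference of -2.87 ± 0.12. SMAD4, the shared partner of the SMAD proteins, was at 25.9 and 26.5 in RKO and 0.985, 1.10 and 1.28 in COLO 201, a difference of 3.68 ± 0.06. H1975 held 22.0, 23.3 and 23.03 of SMAD4, so COLO 201 was the low line of the 3. The target ID2 was at 0.733 and 1.20 in RKO and 101, 101 and 91.7 in COLO 201, a difference of -5.66 ± 0.18. SMAD6, a BMP-induced inhibitor, was at 0.217 and 0.0356 in RKO and 21.5, 19.9 and 21.3 in COLO 201, a difference of -4.28 ± 0.12. SMAD4, SMAD6 and SMAD9 lost their calls with a pseudocount of 5.

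**Figure D3:**
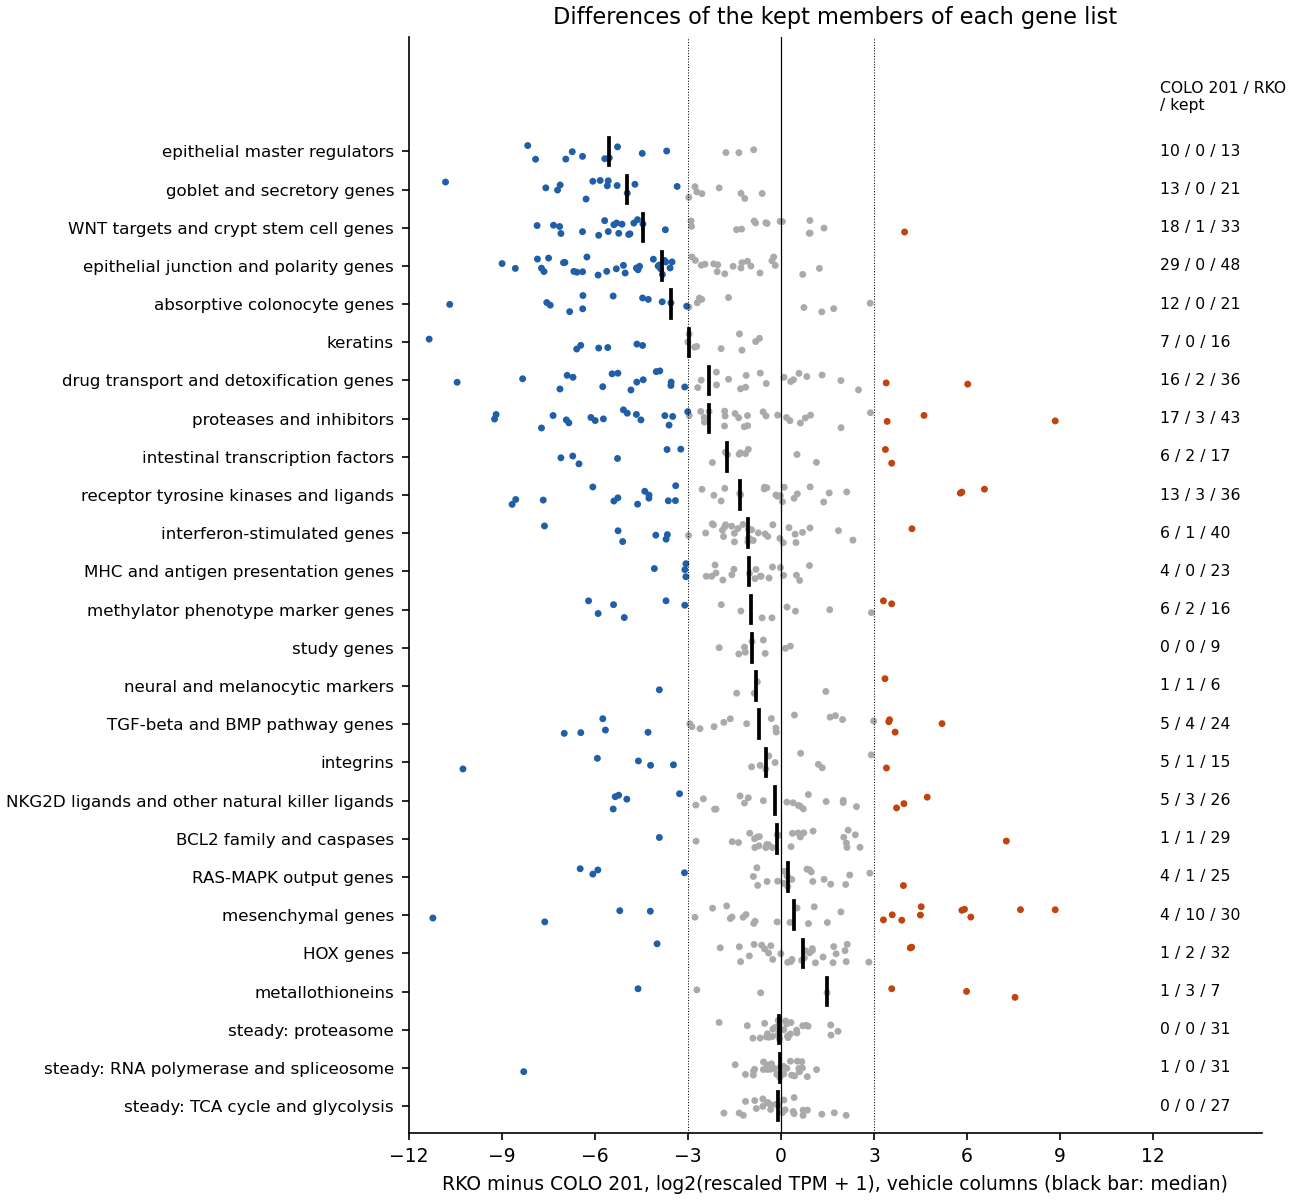
RKO minus COLO 201 difference, on the log2(rescaled TPM + 1) scale, of every kept member of the lists shown. Each list shown has at least 5 kept members, and some lists of that size are left out. Blue points were called higher in COLO 201, red points higher in RKO, and the black bar is the median of the kept members. The counts at the right give the calls for COLO 201, for RKO and the kept members: the epithelial, secretory and WNT lists lie to the left, metallothioneins and mesenchymal genes reach far to the right, and the steady lists at the bottom lie around 0.

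The study is about MUC1 and the secretion of stress ligands, and none of its 9 genes was called. Of the 9, 7 had a lower mean in RKO, and the median difference was -0.93, where that of all kept genes was -0.12. MICA, a stress ligand of the natural killer cell receptor NKG2D, stood at 4.41 and 4.18 in RKO and 11.6, 11.1 and 10.2 in COLO 201, a difference of -1.18 ± 0.06. Its relative MICB stood at 4.31 and 4.26 in RKO and 7.32, 6.85 and 6.34 in COLO 201, a difference of -0.57 ± 0.05. RAB27A, a GTPase of exosome release, was at 7.15 and 7.70 in RKO and 20.6, 20.7 and 20.5 in COLO 201, a difference of -1.36 ± 0.05. The lines did not overlap for these 3 genes, with RKO the lower. All 9 differences of the study genes lay between -1.99 and 2.10, the range of the 88 uncalled genes of processes that every cell runs. The 5% and 95% points of all 89 such genes, U2AF1 included, were -1.29 and 1.49. MUC1 (-1.99) and RAB27A (-1.36) lay below the lower point, and the rest of the study genes lay between the points. Differences like those of the rest are therefore not particular to the study genes. The DNA methyltransferase DNMT1 stood at 159 and 157 in RKO and 142, 144 and 143 in COLO 201, a difference of 0.14 ± 0.01. It became -0.04 when columns were brought to equal sums, so DNMT1 has no firm direction. DNMT3A was at 7.99 and 7.70 in RKO and 18.3, 18.5 and 19.0 in COLO 201, a difference of -1.15 ± 0.03. EZH2, the Polycomb methyltransferase, was at 96.6 and 98.3 in RKO and 141, 138 and 137 in COLO 201, a difference of -0.51 ± 0.02.

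MICA and MICB lie in a stretch of chromosome 6 in which nearly every gene was low in RKO. Over 105 kept genes that start between 28.5 and 33.5 Mb on chromosome 6 (GRCh38), the median difference was -2.18. It was 0.07 for the 498 kept genes of the rest of the chromosome. Of these 105, 98 had a lower mean in RKO and 25 (23.8%) were called, against 7.09% of all kept genes. They included genes that every cell needs. TUBB, a tubulin, was at 145 and 139.5 in RKO and 1183, 1204 and 1189 in COLO 201, a difference of -3.06 ± 0.03. The chaperone BAG6 was at 27.0 and 26.6 in RKO and 154, 154 and 161 in COLO 201, a difference of -2.50 ± 0.02. H1975 lay near COLO 201 over the same genes, with a median of H1975 minus COLO 201 of -0.26. The genes around MICA and MICB had median differences of -2.58 and -2.52, larger than those of MICA (-1.18) and MICB (-0.57) themselves. The low levels of HLA, MICA and MICB genes in RKO cannot be told apart from this shift of the whole stretch.

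The antigen presentation genes have to be read with that stretch. Of 23 kept, 4 were called higher in COLO 201 and 0 higher in RKO, and the 4, HLA-DRB1, HLA-DMA, PSMB8 and PSMB9, lie in it. HLA-B was at 12.3 and 12.4 in RKO and 52.0, 57.2 and 59.4 in COLO 201, a difference of -2.09 ± 0.06. HLA-C was at 60.8 and 64.4 in RKO and 329, 331 and 348 in COLO 201, a difference of -2.41 ± 0.05. Neither of these class I heavy chains, which are near-identical and so uncertain in counting, was called. B2M, their light chain, lies on chromosome 15 and had the other order, at 465 and 452 in RKO and 244, 236 and 246 in COLO 201, a difference of 0.92 ± 0.03. PSMB8, PSMB9 and HLA-DMA lost their calls under upper quartile scaling, and all 4 genes with a pseudocount of 5. HLA-DMA also lost it with RKO vehicle column 1, and PSMB9 without RKO vehicle column 2.

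Natural killer and checkpoint ligands showed calls in both directions. Of 26 kept, of which MICA, MICB and BAG6 lie in that stretch, 5 were called higher in COLO 201 and 3 higher in RKO, with a median difference of -0.19. CD274, which encodes PD-L1, stood at 148 and 149 in RKO and 4.82, 4.64 and 4.63 in COLO 201, a difference of 4.71 ± 0.02. Its neighbour PDCD1LG2, which encodes PD-L2, was at 14.9 and 14.3 in RKO and 0 in all 3 COLO 201 columns. ICAM1, the ligand of LFA-1, was at 42.1 and 42.7 in RKO and 1.95, 2.40 and 2.52 in COLO 201, a difference of 3.73 ± 0.08. These 3 were the calls on the RKO side. CEACAM1, an inhibitory adhesion molecule, was at 0 in both RKO columns and 41.8, 41.2 and 41.3 in COLO 201. The death ligand TNFSF10 was at 0 in both RKO columns and 40.6, 38.3 and 39.8 in COLO 201. The checkpoint molecule VTCN1 was at 0 in both RKO columns and 28.8, 31.0 and 31.1 in COLO 201. Of the other NKG2D ligands, neither ULBP2 nor ULBP3 was called, and both had the order opposite to MICA and MICB. ULBP2 stood at 28.6 and 24.99 in RKO and 5.71, 6.32 and 5.67 in COLO 201, a difference of 2.01 ± 0.10. ULBP3 stood at 36.7 and 34.2 in RKO and 8.57, 7.54 and 8.15 in COLO 201, a difference of 2.00 ± 0.07. PDCD1LG2, ICAM1 and VTCN1 lost their calls with a pseudocount of 5.

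Interferon-stimulated genes mostly had a lower mean in RKO, in 31 of 40 kept. Called were 6 higher in COLO 201 and 1 higher in RKO, where 7.09% and 2.85% of all kept genes were, and the median difference was -1.06. LGALS3BP, a secreted glycoprotein, was at 2.07 and 1.798 in RKO and 563, 581 and 585 in COLO 201, a difference of -7.62 ± 0.07. IFI6, a mitochondrial protein, was at 3.87 and 6.35 in RKO and 198, 198 and 217 in COLO 201, a difference of -5.10 ± 0.30. RKO vehicle column 1 held 158 of IFI6. OAS1, a sensor of double-stranded RNA, was at 0.162 and 0.177 in RKO and 18.2, 17.95 and 18.3 in COLO 201, a difference of -4.03 ± 0.01, a call lost with a pseudocount of 5. The membrane protein IFITM2 had the opposite order, at 789 and 796 in RKO and 39.6, 42.5 and 42.5 in COLO 201, a difference of 4.22 ± 0.03. MX1, a classical marker of the response, stood at 19.7 and 19.5 in RKO and 19.2, 19.0 and 22.2 in COLO 201, with overlap of the lines.

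Detoxifying enzymes and pumps were called higher in COLO 201 in 16 of 36 kept genes and higher in RKO in 2, with a median difference of -2.33. Over all 49 shared members, kept or not, the median was -0.66. GPX2, the glutathione peroxidase of the gut, stood at 0 and 0.0767 in RKO and 1445, 1369 and 1496 in COLO 201. ALDH1A1, an aldehyde dehydrogenase, was at 0 in both RKO columns and 327, 313 and 318 in COLO 201. ABCC3, an export pump, was at 0 in both RKO columns and 103, 101 and 104 in COLO 201. Each was near or at 0 in RKO columns 2 and 3. AKR1C3, an aldo-keto reductase with near-identical relatives, was at 0 in both RKO columns and 138, 133 and 144 in COLO 201. It lies with CALML3, a calmodulin-like gene at 0 in both RKO columns and 1004, 960.4 and 1015 in COLO 201, in a stretch of chromosome 10 whose 10 genes all had a lower mean in RKO. NQO1, a quinone reductase, was detected in both lines, at 61.6 and 60.9 in RKO and 530.0, 532 and 536 in COLO 201, a difference of -3.10 ± 0.01. GSTM1, a glutathione transferase gene that is often deleted in people, was at 60.6 and 67.3 in RKO and 0 in all 3 COLO 201 columns.

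Metallothioneins, small proteins that bind zinc and copper, reached high levels in RKO, where 3 of 7 kept genes were called higher and 1 was called higher in COLO 201. MT2A stood at 11359 and 11872 in RKO and 962, 982 and 988 in COLO 201, a difference of 3.57 ± 0.03. MT1E was at 3128 and 3212 in RKO and 47.0, 48.6 and 52.1 in COLO 201, a difference of 5.98 ± 0.05. MT1M was at 173 and 199 in RKO and 0 in all 3 COLO 201 columns. MT1G had the other order, at 0 and 0.961 in RKO and 33.0, 32.5 and 33.8 in COLO 201, a call lost with a pseudocount of 5. The 10 listed genes summed to 16854 and 17376 in the RKO vehicle columns and to between 1822 and 1894 in COLO 201. In the RKO doxycycline columns the sum ran from 33597 to 37426. Members of this family are near-identical, so reads may have been divided between them.

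Integrins and secreted proteases also differed by line. Of 15 kept integrins, 5 were called higher in COLO 201 and 1 higher in RKO. ITGB4 and ITGA6 form the pair that anchors epithelial cells to the basement membrane. ITGB4 stood at 0.0204 and 0.0167 in RKO and 1217, 1220.2 and 1274 in COLO 201, a difference of -10.25 ± 0.02. ITGA6 stood at 15.7 and 14.4 in RKO and 977, 982 and 944 in COLO 201, a difference of -5.92 ± 0.06. ITGA5, the fibronectin receptor subunit, had the other order, at 95.3 and 95.3 in RKO and 8.38, 8.13 and 7.85 in COLO 201, a difference of 3.40 ± 0.02, a call lost with a pseudocount of 5. Of 43 kept proteases and inhibitors, 17 were called higher in COLO 201 and 3 higher in RKO. The serine protease KLK6 was at 0 in both RKO columns and 599, 589 and 610.4 in COLO 201. PRSS1, a trypsinogen with near-identical relatives, was at 0 in both RKO columns and 582, 570.5 and 584 in COLO 201. TMPRSS2, a membrane protease, was at 0 in both RKO columns and 121, 118 and 121 in COLO 201. These secreted and surface proteases were listed at 0 in RKO columns 2 and 3. The RKO side included CTSL and PLAUR. The cathepsin CTSL was at 282 and 296 in RKO and 11.1, 11.5 and 10.0 in COLO 201, a difference of 4.61 ± 0.06. The urokinase receptor PLAUR was at 141 and 151 in RKO and 12.5, 12.7 and 12.8 in COLO 201, a difference of 3.42 ± 0.05.

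Among 29 kept genes of the BCL2 family and the caspases, 1 was called higher in COLO 201 and 1 higher in RKO, where 7.09% and 2.85% of all kept genes were. These 2 are given as single genes. BCL2A1, an anti-apoptotic member, stood at 179 and 178 in RKO and 0.158, 0.0578 and 0.305 in COLO 201, a difference of 7.26 ± 0.09. BIK, a pro-apoptotic member, had the other order, at 4.68 and 5.57 in RKO and 92.4, 86.6 and 95.4 in COLO 201, a difference of -3.92 ± 0.11. The anti-apoptotic MCL1 was not called, at 721 and 693 in RKO and 134, 137 and 130.0 in COLO 201, a difference of 2.40 ± 0.04. Of 32 kept HOX genes, which record position along the body axis, 1 was called higher in COLO 201 and 2 higher in RKO. Of all kept genes 7.09% and 2.85% were, and counts this small are given as single genes only. Each of these 3 HOX genes lost its call with a pseudocount of 5. HOXA3 was at 0.894 and 0.734 in RKO and 26.9, 28.4 and 28.2 in COLO 201, a difference of -3.99 ± 0.07. HOXC8 had the other order, at 33.9 and 32.4 in RKO and 0.715, 0.972 and 1.03 in COLO 201. HOXD9 had it as well, at 18.6 and 16.6 in RKO and 0 in all 3 COLO 201 columns. Of 47 cancer-testis genes, 32 were listed at 0 in both lines and 1 was kept. It was PRAME, at 14.04 and 15.4 in RKO and 0.549, 0.596 and 0.634 in COLO 201, a difference of 3.30 ± 0.07, a call also lost with that pseudocount.

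Few markers of other tissues were kept, so the number of calls among them says little. Among 6 kept neural and melanocytic markers, 1 was called higher in COLO 201 and 1 higher in RKO. Of all kept genes 7.09% and 2.85% were. GAP43, a growth cone protein, was at 9.61 and 8.83 in RKO and 0 in all 3 COLO 201 columns. SYT1, a synaptic vesicle protein, was at 0 in both RKO columns and 14.6, 13.997 and 13.8 in COLO 201. The defining markers SOX10 and MLANA were at or near 0 in both lines, with at most 0.0326 in any of the 5 columns. Both calls were lost with a pseudocount of 5, and that of SYT1 also with RKO vehicle column 1, which held 8.80.

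Several of the largest differences were in genes outside the lists. On the COLO 201 side, TNS4, a tensin of epithelial cells, was at 0 in both RKO columns and 1322, 1332 and 1386 in COLO 201. The secreted phospholipase PLA2G2A was at 0 in both RKO columns and 1243, 1198 and 1230.2 in COLO 201. DNAJC15, a mitochondrial co-chaperone, was at 0 and 0.0389 in RKO and 546, 518 and 537 in COLO 201. None of these passed 0.0389 in RKO columns 2 and 3, while column 1 held 5.95 of DNAJC15. On the RKO side, G0S2, an inhibitor of lipolysis, was at 946 and 1008 in RKO and 0.656, 0.321 and 0.564 in COLO 201, a difference of 9.34 ± 0.11. STC1, a secreted glycoprotein hormone, was at 605 and 568 in RKO and 0 in all 3 COLO 201 columns. CCND2, a D-type cyclin, was at 234 and 223 in RKO and 0.0393, 0.0216 and 0.0507 in COLO 201. All 3 stayed under 1 in COLO 201. LCP1, the actin bundler plastin, was at 382 and 365 in RKO and 0.541, 0.440 and 0.446 in COLO 201, a difference of 7.99 ± 0.04. IL32, a cytokine, was at 213 and 220.2 in RKO and 0.566, 0.359 and 0.583 in COLO 201, a difference of 7.18 ± 0.08. RGS4, a brake on G-protein signals, was at 212 and 203 in RKO and 0.0188, 0.0552 and 0.0486 in COLO 201, a difference of 7.65 ± 0.03.

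For some of the largest differences the counting is uncertain. ATP6V0C, a subunit of the proton pump of lysosomes, KRTCAP2 and BEX3 had at least 147 in the RKO columns and under 1 in every vehicle column of COLO 201 and H1975. In all, 29 genes had at least 20 in RKO and under 1 in COLO 201 and H1975. EIF4A1, the main translation helicase, had the reverse pattern, at 0 in both RKO columns and 689, 697 and 706 in COLO 201 and 1207, 1182 and 1212 in H1975. It was among 63 genes that were under 0.1 in the 5 RKO columns other than vehicle column 1 and at least 20 in COLO 201 and H1975. LDHB, the heart form of lactate dehydrogenase, was at 2078 and 1942 in RKO and 0 in all 3 COLO 201 columns and 722, 711 and 726 in H1975. By position, 558 of the kept genes (4.60%) overlap exons of another gene on the same strand by at least 25% or have a read-through name, among them EIF4A1, LDHB and ATP6V0C. The share was 8.02% among the genes called higher in COLO 201 and 6.94% among those called higher in RKO. Only 4 of the 63 genes near 0 in RKO and 3 of the 29 high in RKO alone met this rule. KRTCAP2 and BEX3 did not meet it. The tables follow different gene lists, and the part of counting in these genes was not tested.

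Differences were not spread evenly over the chromosomes. The median difference was -1.07 over 208 kept genes of chromosome 13, -0.57 over 333 of chromosome 20 and -0.42 over 371 of the X chromosome. At the other end it was 0.41 over 415 genes of chromosome 8, 0.31 over 161 of chromosome 18 and 0.30 over 652 of chromosome 12. On chromosome 13, 82.2% of genes had the lower mean in RKO, and CDX2, which was higher there, lies on it. In 7 stretches of at least 8 neighbouring genes the running median over 14 neighbours was past 1.5 in size, and in all 7 RKO was the lower line. In 5 of them H1975 was low as well, so COLO 201 was the line that stood apart. One of these, at chr6:134169256-138344663, held 16 genes with a median of -2.40, and H1975 minus COLO 201 was -2.35. It holds MYB, a transcription factor of crypt progenitors, at 5.83 and 6.64 in RKO and 371, 368 and 366 in COLO 201, a difference of -5.68 ± 0.08, with 5.53, 5.29 and 4.93 in H1975. PERP lies in the same stretch. Another, at chr6:37423985-42890821, held 32 genes with a median of -2.33. It holds CCND3, a D-type cyclin, at 45.1 and 46.0 in RKO and 86.3, 85.5 and 90.2 in COLO 201, a difference of -0.92 ± 0.03, with 8.40, 8.79 and 9.19 in H1975. TMPRSS2 and MX1 lie in a stretch of 11 genes of chromosome 21 with a median of -1.50. In the HLA stretch and in 11 genes of chromosome 17 around ACACA and AATF, H1975 lay near COLO 201 and RKO, or its table, stood apart. Gene copy number was not measured.

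**Figure D4:**
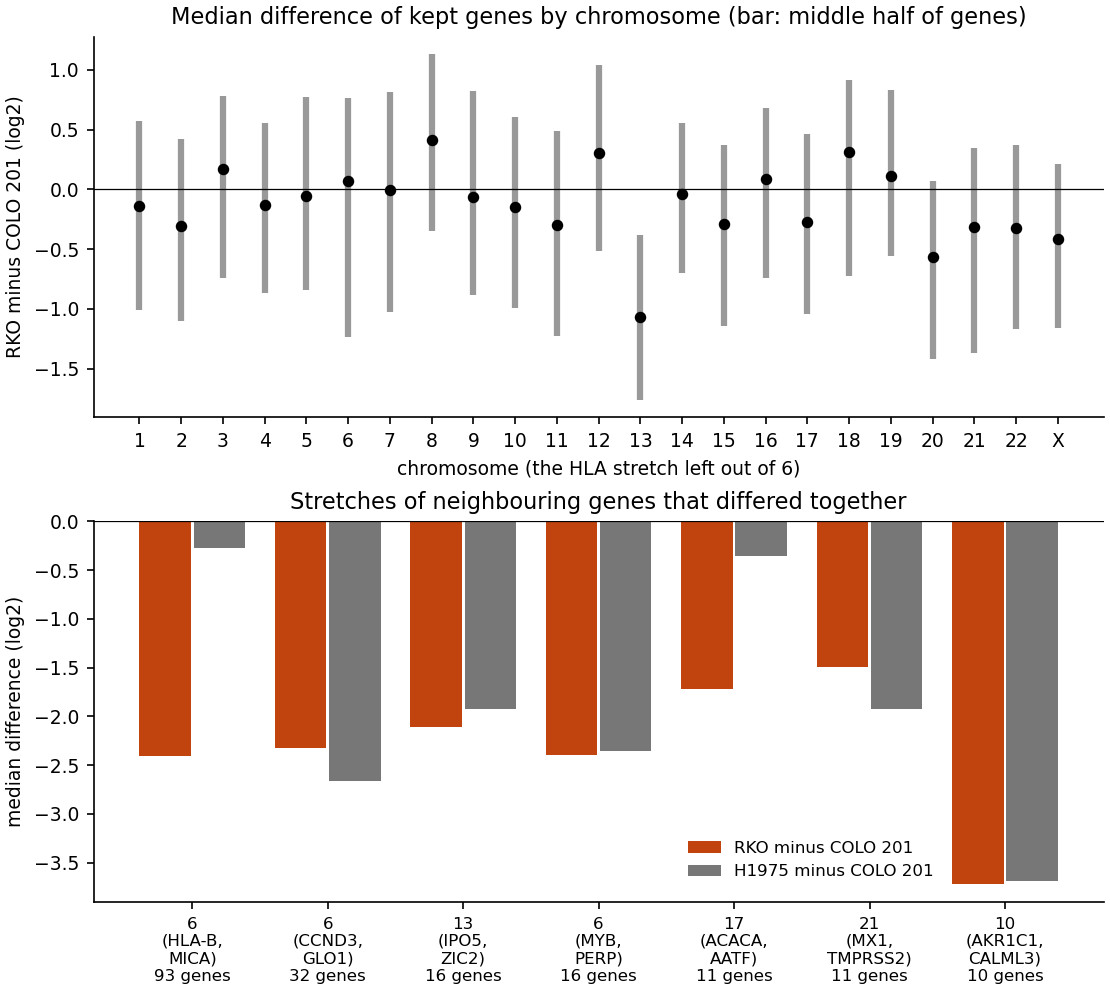
Top, the median RKO minus COLO 201 difference (log2) of kept genes on each chromosome, with the middle quartiles as a bar and the HLA stretch left out of chromosome 6; chromosome 13 lies lowest at -1.07 and chromosome 8 highest at 0.41. Bottom, the median difference over each stretch of neighbouring genes for RKO and for H1975 against COLO 201; the grey bar is close to 0 for the stretches of HLA-B and ACACA and near the red bar for the other 5.

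The doxycycline columns gave a second view of the same 2 lines, in columns that the vehicle comparison did not use. Of 12180 genes kept there, 816 (6.7%) were called higher in COLO 201 and 385 (3.16%) higher in RKO. Of the genes called in vehicle, 717 of 860 were called again for COLO 201 and 311 of 346 for RKO, 1028 in all. No gene was called in opposite directions, and all 1206 had the same sign. CDH1 was at 0 in all 3 RKO doxycycline columns and 312, 310.3 and 312 in those of COLO 201. ZEB1 was at 75.3, 74.9 and 71.4 in RKO and 0.668, 0.928 and 0.695 in COLO 201. AXIN2 was at 1.35, 0.968 and 1.56 in RKO and 188, 177 and 180.1 in COLO 201. These 3 kept the order of the vehicle columns without overlap. CDX2 stood at 12.5, 10.3 and 13.6 in RKO and 1.11, 1.36 and 1.16 in COLO 201, a difference of 2.56 ± 0.12, and was not called there. The arms share the tables, so a difference in counting between the tables is present in both.

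**Figure D5:**
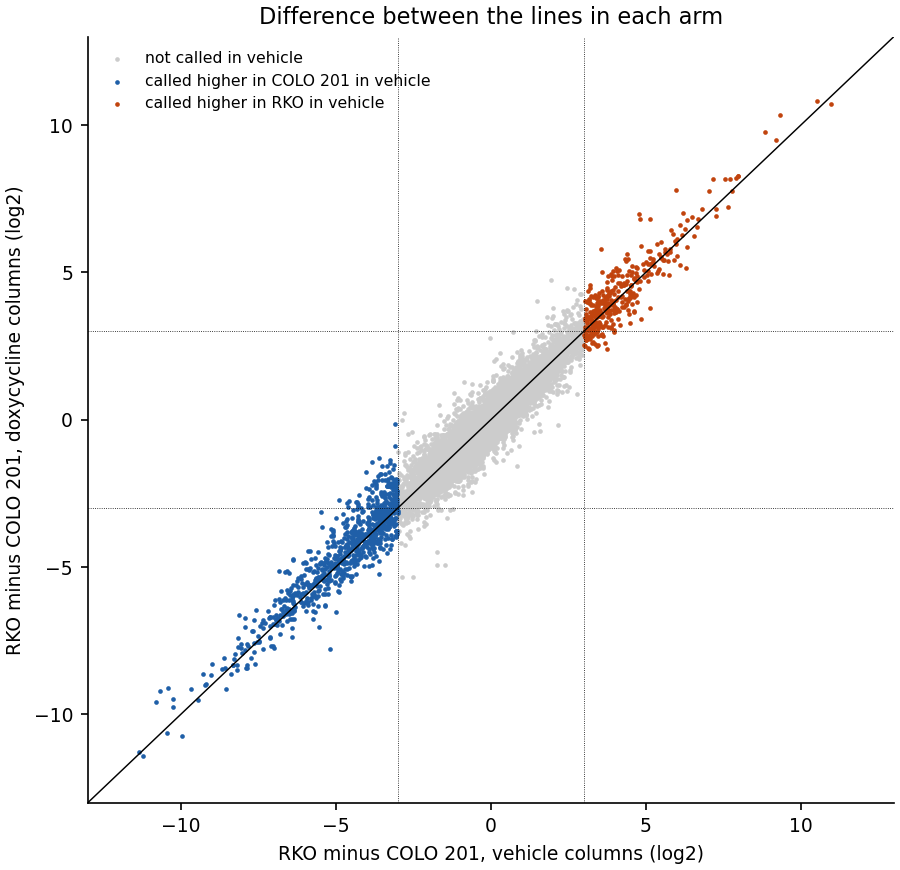
RKO minus COLO 201 difference (log2) of each gene in the vehicle columns (x axis) and in the doxycycline columns (y axis), coloured by the vehicle call. The coloured points follow the diagonal, and all 1206 called genes lie on the same side of 0 in both arms.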

How the data were processed

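Messenger RNA had been sequenced with a stranded kit, per the labels' protocols. The submitters' processing notes name STAR, DESeq2 and GRCh38 without version numbers, and the counting tool was not given in the sources used here. The authors deposited 1 TPM table per cell line, each column adding up to 1000000 over that table's own genes. TPM keeps no read totals, so depth is unknown. Small noncoding RNA took 67.8% to 72.0% of the RKO vehicle columns, and mitochondrial genes 18.4% to 21.1% and histone genes 14.3% to 15.3% of those of COLO 201.

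Here older symbols were matched to RefSeq. Small noncoding RNA, mitochondrial, histone and Y-linked genes and unclear names were removed, and the shared genes of each column were brought to 1000000. Columns were then rescaled by the median ratio over 9940 genes of at least 1 in all columns used. The columns carry line and arm but cannot be tied to a sample title, and no 2 held identical values. The settings were a pseudocount of 1, a mean of at least 1 in either line and a difference of 3 without overlap. Gene positions and promoters came from RefSeq (GRCh38.p14) and exon overlap from GENCODE release 29. The calculation was made in Python 3.11.15 with pandas 2.3.3 and numpy 2.4.6, and was tested on simulated data. Other pseudocounts, scalings, filters and left-out columns were tried.

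Named genes were the study genes, the 15 largest calls in each direction, up to 6 called members of each list in each direction (with few called, the 3 members of largest difference) and 13 genes chosen for their role. DSG2, ESRP2, DUSP6, TGFBR2, MCL1, NQO1, ULBP2, ULBP3, MX1, CTNNB1, CCND1, MYC, TUBB, BAG6 and CCND3 were added after their values were seen. Some genes that this rule names are not reported here. The members and lists were chosen with earlier results of these data known.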

Additional observations from a re-analysis of the deposited data

Results flagged for a closer look

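RKO vehicle column 1 was outside the comparison and held signal that the other 5 RKO columns lacked. Fibroblast and endothelial markers summed to 1256 rescaled TPM there, against at most 0.465 in the other RKO columns. COL1A2 stood at 344 and COL3A1 at 167, both at 0 in RKO vehicle columns 2 and 3, while the endothelial marker CDH5 was at 0 in column 1 as well. Neural and melanocytic markers summed to 364.2 against at most 70.7, and absorptive colonocyte genes to 371.7 against at most 55.5, of which ANPEP, an enzyme that fibroblasts also carry, made up 323.5. VIM stood at 1466 against at most 9.51, CDKN2A at 196 against at most 0.260 and EGFR at 65.8 against at most 13.4. MUC1 was at 61.7 against at most 4.47. In all, 91 genes reached at least 50 in column 1 and at least 8 times every other RKO column. Markers of other cells moved with these genes, and their part in each value was not tested.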

How the results depend on the processing

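The numbers of genes higher in COLO 201, higher in RKO and past the threshold in both arms were 860, 346 and 1028. They moved past 1.5 times only with the pseudocount: 1459, 589 and 1793 with 0.1, and 374, 136 and 427 with 5. A smaller pseudocount enlarges the differences of low genes by construction. Other scalings gave 821 to 922 and 318 to 375, and the median of all genes ran from -0.29 with equal sums to 0.03 with the upper quartile. Keeping RKO vehicle column 1 gave 764, 336 and 951. Leaving out each vehicle column gave 857 to 867, 343 to 350 and 1025 to 1034, and each doxycycline column 1026 to 1030 for both arms. Settings without some genes were added after seeing the data: without the chromosome 6 stretch the counts were 835, 346 and 1007, without genes that share exons 791, 322 and 944, and without genes in shifted stretches 798, 338 and 966. No called gene named here changed its direction. Of 157 named and called genes, 36 lost the call with a pseudocount of 5, 10 with RKO column 1, 4 with the upper quartile (SPRY1, PSMB8, PSMB9 and HLA-DMA), 2 without RKO vehicle column 2 (SPRY1 and PSMB9) and 0 under the other scalings. SCG2 and SYP, not called, changed sign with RKO column 1. No paired analysis was possible because no test was made between the separately normalised tables and the column numbers could not be tied to sample titles. Depth is not known from TPM, so it is not known how many reads lie behind a gene listed at 0.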
